A study of Mus musculus with 16 samples.

Results

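The 42 genes described here encode the plasma proteins of complement and of blood clotting, with the protease that dissolves clots and the inhibitors of both systems. They were chosen by symbol from a list of 43 entries, of which 42 are among the 50559 gene symbols of the count table and 1 is a placeholder for protein Z that names no gene. All 42 passed the filter on low counts, as did 18335 of the 33142 genes with any count.

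Complement is a chain of proteases that meets at C3. The classical pathway starts at C1q, the lectin pathway at mannose-binding lectins, and the alternative pathway amplifies C3 cleavage through factors B and D, after which the terminal proteins assemble a pore in the target membrane. Clotting likewise runs through serine proteases to thrombin, which turns fibrinogen into fibrin, and antithrombin, protein C and heparin cofactor II hold it in check. Hepatocytes make most of these proteins, whereas C1q comes mainly from macrophages and factor D mainly from adipocytes.

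The data are 16 libraries of liver RNA from male C57BL/6J mice, 4 in each of 4 groups. Mice received an LFD (called chow in the labels) or an HFD for 10 weeks from 6 weeks of age, and all were treated from week 6 for 4 weeks. The LFD and HFD groups received a control siRNA against luciferase (10 mg/kg, 1 dose per 2 weeks) and a methylcellulose gavage 2 times per day. In the HFD + siRNA group (the siRNA group), an siRNA against ketohexokinase (KHK), the first enzyme of fructose breakdown, was given at 20 mg/kg with the same gavage. The HFD + Inhib group (the inhibitor group) received the control siRNA at 10 mg/kg and the KHK inhibitor PF-06835919 at 15 mg/kg 2 times per day. The siRNA carries GalNAc, which directs it to hepatocytes, while the inhibitor is systemic, and the doses of KHK siRNA and control siRNA differ. Saline or insulin was injected 10 minutes before collection, and the labels do not say which library received which. The labels number the libraries of a group without saying that each came from another mouse, so the p-values measure the spread between libraries. Totals ranged from 24317111 to 35820234 counts (median 29570114), and levels are given as CPM, which are counts relative to the library total after TMM scaling.

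Khk itself was read first as a check of the labels. It stood at 214, 233, 349 and 269 CPM in LFD, 251, 322, 233 and 251 in HFD, 11.8, 9.14, 18.1 and 11.5 in the siRNA group and 112, 152, 94.6 and 120.5 in the inhibitor group. The 4 siRNA libraries lay far below all others, and the 4 inhibitor libraries lay below all LFD and HFD libraries. All comparisons here use the quasi-likelihood test of edgeR, and adjusted p-values follow Benjamini and Hochberg. Khk fell by 4.38 ± 0.23 (SE) on the log2 scale with the siRNA (adjusted p = 1.88e-08) and by 1.14 ± 0.20 with the inhibitor (adjusted p = 0.000752). Hepatocyte markers were present throughout, and their summed level was 108165 ± 11179.5 CPM in LFD, 95140 ± 6544 in HFD, 102831 ± 6734 in the siRNA group and 62816 ± 1149 in the inhibitor group (mean ± SD, n = 4). Alb, the most abundant of the 10, was measured at 54080.2, 42757, 52893 and 54189.8 CPM in HFD and 29784, 27702, 30234 and 31981 in HFD + Inhib. Alb thus weighs heavily in the sum, which does not stand for each of the 10 markers. In bulk liver RNA, fewer cells of a type and less RNA per cell cannot be told apart.

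As a group, the 42 members were lowest in the inhibitor group and highest in LFD. Their summed level was 36913 ± 3025 CPM in LFD, 27988 ± 1659 in HFD, 32469 ± 902 in the siRNA group and 23569 ± 1197 in the inhibitor group. The LFD libraries ranged from 32857 to 40007 CPM and the HFD libraries from 26209 to 30203, so that these groups did not overlap. The siRNA libraries (31217 to 33336) lay above every HFD library, and the inhibitor libraries (22007 to 24548) lay below all others. Each of the 8 roles had its lowest mean in HFD + Inhib except C3 and the alternative pathway, where HFD and HFD + Inhib stood side by side at 6143 ± 574 and 6163 ± 472 CPM. For scale, the within-group SD of log2 CPM had a median of 0.17 over the members and 0.25 over all tested genes, and Cfd was the most variable member (1.03).

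**Figure D1:**
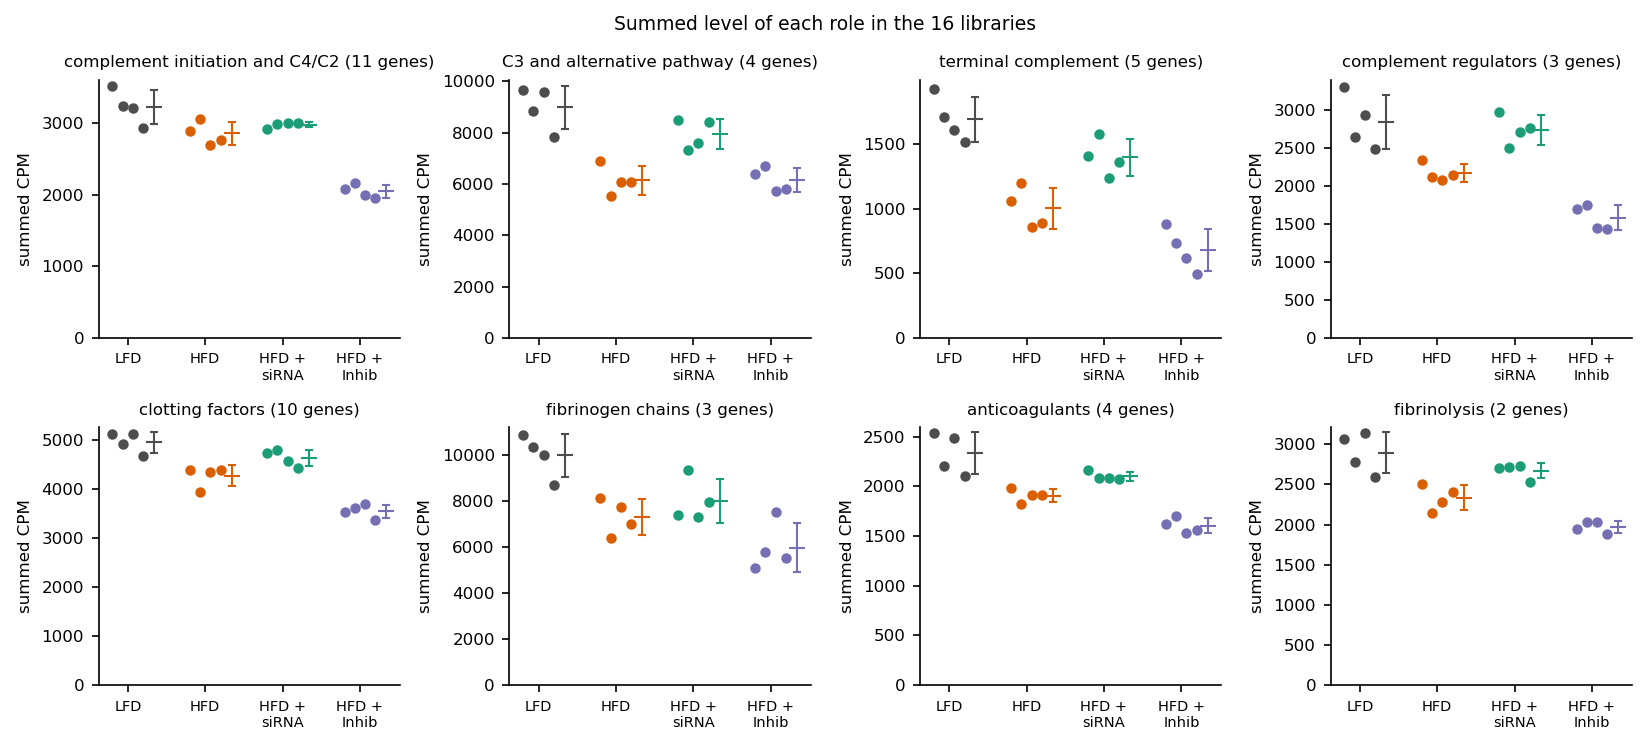
Summed CPM of the genes of each role (y axis, starting at 0) in the 16 libraries by group (x axis), with points for libraries and a bar for mean ± SD of 4. The inhibitor libraries are lowest in most panels, and the terminal complement sum runs from 1692 ± 175 CPM in LFD to 681 ± 165 in HFD + Inhib.

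The first question of the design is what the HFD does. Of the 42 members, 20 fell and 2 rose in HFD versus LFD at an adjusted p under 0.05, beside 8.80% of all tested genes that fell and 9.58% that rose. Most members are abundant, and of the 3994 abundant genes (mean log2 CPM of 5 or more) 598 fell and 548 rose. The members that fell were C1ra, Mbl1 and C2 of the starting steps, C3 and Cfb, the terminal genes C6, C8a, C8b and C9, the regulators Serping1 and Vtn, the clotting genes F2, F7, F10 and Kng1, Fga and Fgg, Serpinc1, and Plg and Serpinf2. Cfd and F9 rose. The median member log2 fold change was -0.285, against -0.011 over all tested genes. The count depends on single libraries, since it was 12 without LFD replicate 1, 13 without LFD replicate 3, 14 without HFD replicate 3 and 12 without HFD replicate 4, and 10 of the 22 calls held in all 8 fits that left out a library (C2, C3, Cfb, C8a, C8b, Vtn, F7, F10, Kng1 and Serpinc1).

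The second question is what the KHK siRNA and the KHK inhibitor each do in HFD-fed mice. In HFD + siRNA versus HFD 5 members rose (Mbl1, C3, C8a, Serping1 and Vtn) and 0 fell, beside 5.20% of all tested genes that rose and 6.55% that fell (9.34% and 12.1% of the abundant genes). The median member log2 fold change was 0.184 (all tested genes, 0.022). None of these 5 calls held in all 8 fits with a library left out, and the count was 3 without HFD replicate 1, 0 without HFD replicate 3, 0 without HFD replicate 4, 1 without HFD + siRNA replicate 1, 2 without HFD + siRNA replicate 3 and 0 without HFD + siRNA replicate 4. In HFD + Inhib versus HFD 17 members fell and 1, Cfd, rose, beside 8.42% and 9.80% of all tested genes (11.1% and 19.2% of the abundant genes). All 18 calls held in the 8 fits with a library left out, and the median member log2 fold change was -0.333 (all tested genes, -0.004).

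The 2 treatments were then compared directly. In HFD + Inhib versus HFD + siRNA 31 members were lower and 2, Cfd and F9, were higher, beside 16.6% and 17.3% of all tested genes. Of the abundant genes, 21.1% were lower and 29.0% higher. The median member log2 fold change was -0.499 (all tested genes, -0.038). Of the 33 calls, 29 held in all 8 fits with a library left out, and those of C3, C6, F10 and Fgg did not (highest adjusted p = 0.0914, 0.135, 0.0718 and 0.0516). The 9 members not called were Mbl1, Mbl2, Masp2, Cfp, F13b, Klkb1, Kng1, Fgb and Pros1.

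Each treated group was also compared with LFD, a choice made once values were known. In HFD + siRNA versus LFD 5 members were lower (C1ra, C2, C8b, F10 and Kng1) and 3 higher (Cfd, F5 and Pros1), beside 3.88% and 4.75% of all tested genes (6.33% and 6.16% of the abundant genes). This count was 5 without LFD replicate 1, LFD replicate 2, HFD + siRNA replicate 1 or HFD + siRNA replicate 3, and 4 without LFD replicate 3. In HFD + Inhib versus LFD 31 members were lower and 3 higher (Cfd, F9 and Pros1), beside 18.2% and 18.8% of all tested genes (23.1% and 27.7% of the abundant genes). The comparisons share the HFD or the LFD libraries, so their counts are not independent of each other.

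**Figure D2:**
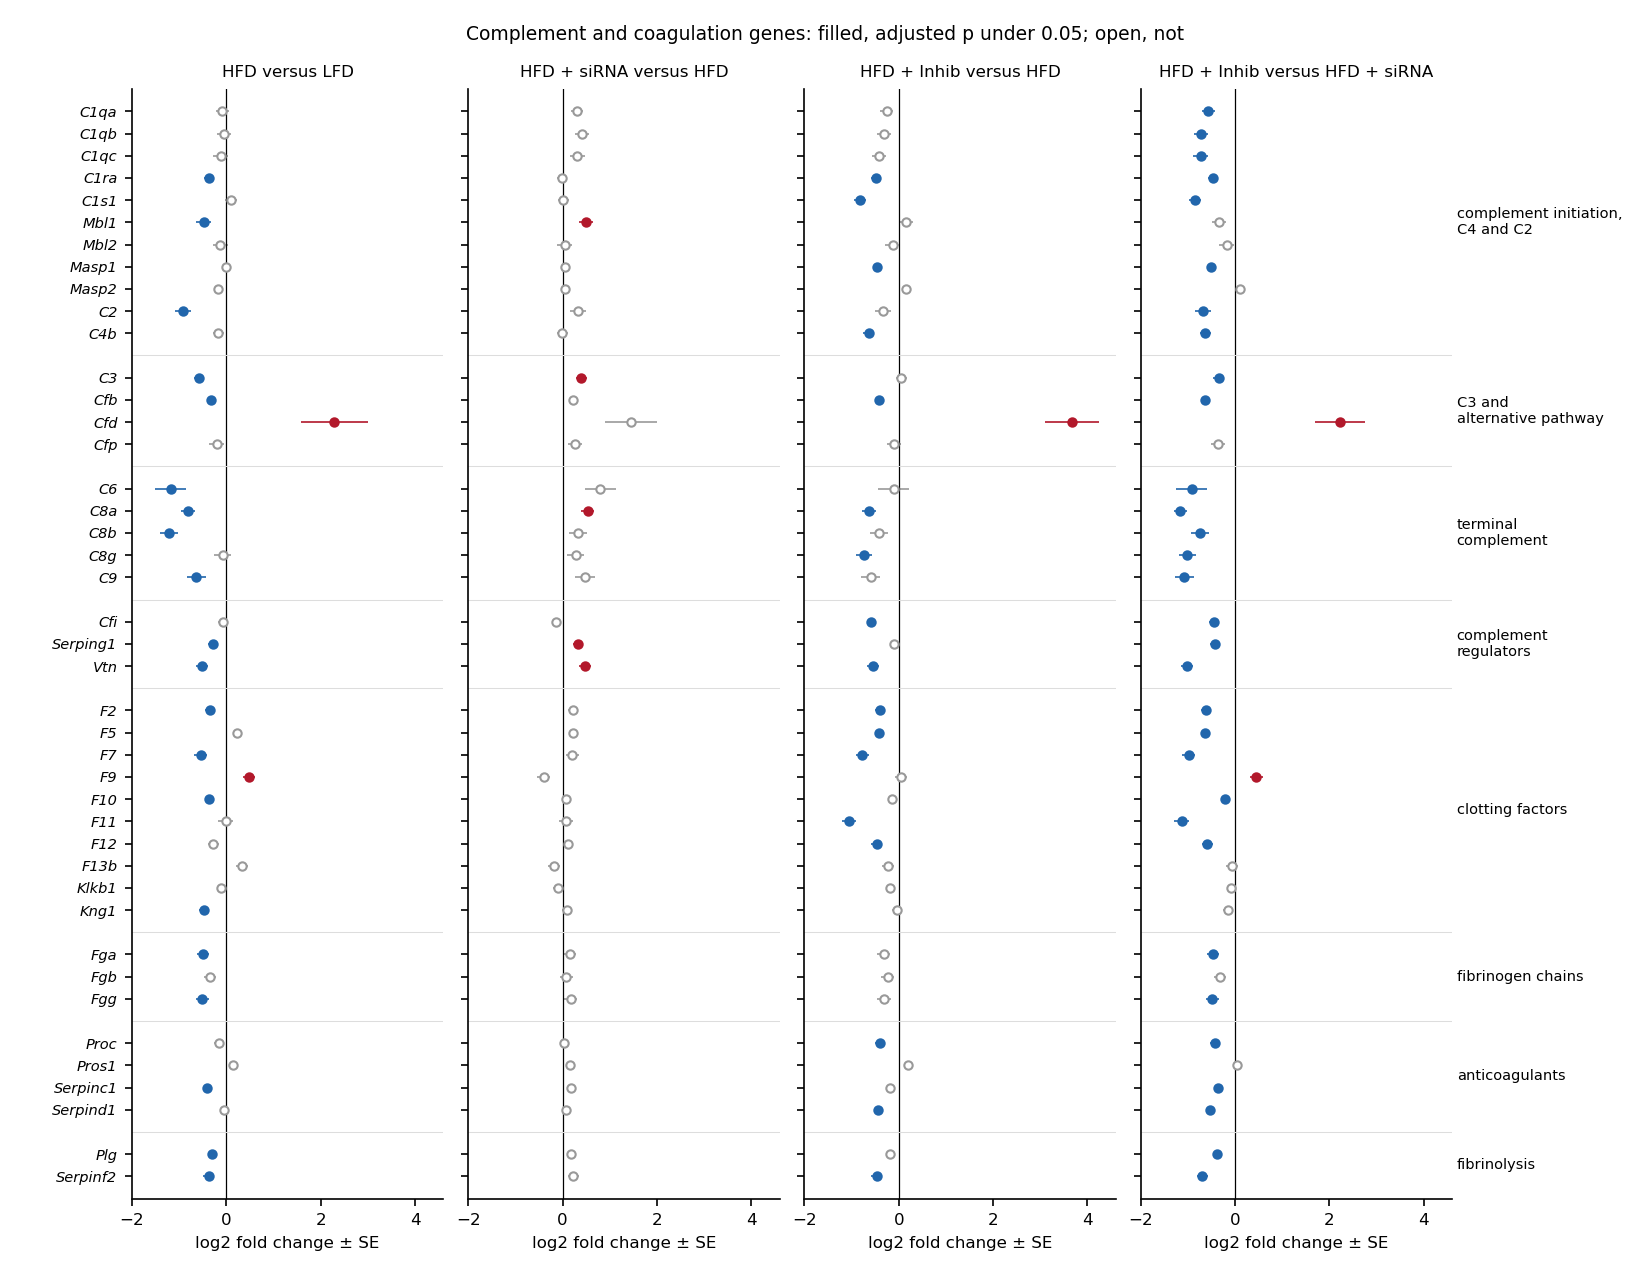
Log2 fold change ± SE (x axis) of the 42 members (y axis, by role) in 4 comparisons, with filled points for an adjusted p under 0.05. Most filled points lie left of 0 in HFD versus LFD and in both inhibitor panels, the 5 filled points of HFD + siRNA versus HFD lie right of 0, and Cfd lies farthest right.

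A base-composition trend moved with these comparisons. Across 8342 genes, Spearman's rho between GC content and log2 fold change was -0.525 for HFD versus LFD, 0.508 for the siRNA and -0.272 for the inhibitor versus HFD, and -0.534 for the inhibitor versus the siRNA, as a description across genes that share libraries. With the trend on GC content and transcript length removed, 17 of the 22 HFD versus LFD calls held, 5 were lost (Serping1, F2, F9, Plg and Serpinf2) and 3 were gained (F5, Klkb1 and Fgb). In HFD + siRNA versus HFD, C8a and Vtn held, Mbl1, C3 and Serping1 were lost, and F5 and Pros1 were gained. In HFD + Inhib versus HFD all 18 calls held, with 7 gained (C1qc, C9, F13b, Klkb1, Fga, Fgb and Fgg). Between the treatments 29 of 33 held, C1qa, C3, F9 and F10 were lost, and 3 were gained (F13b, Klkb1 and Fgb). Against LFD, Pros1 was lost for the siRNA, with 7 of 8 calls held and 0 gained. For the inhibitor 31 of 34 held, C1qc, F9 and Pros1 were lost, and Mbl1, F5 and F13b were gained.

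Some promoters are shown before the values, namely those of the 3 fibrinogen genes, which are neighbours with similar changes, and of C8a, F11 and Cfd, which were each called in another set of comparisons. Of the 42 members, 32 matched a RefSeq promoter by symbol (GRCm38.p6, 250 bases before to 50 after the start, 300 bases). The motifs TTGCNNAA (C/EBP) and TTCNNNGAA (STAT) were searched on both strands. TTGCNNAA was in 10 of the 32 member promoters (31.3%) and in 10.8% of 27025 promoters, and TTCNNNGAA in 8 (25.0%) against 8.47%. A match is a description of letters and not a site. In the sequences below, given 5′ to 3′ on the gene's strand, capitals mark the motif matches. Fga (chr3:83025903-83026202, plus strand) and Fgb (chr3:83049814-83050113, minus strand) held both motifs, with no overlap between them, and Fgg (chr3:83007474-83007773, plus strand) held none. C8a (chr4:104876349-104876648, minus strand) held the STAT motif, F11 (chr8:45261982-45262281, minus strand) held the C/EBP motif starting 17 bases before the gene start, and Cfd (chr10:79890603-79890902, plus strand) held none of these letters.
Fga: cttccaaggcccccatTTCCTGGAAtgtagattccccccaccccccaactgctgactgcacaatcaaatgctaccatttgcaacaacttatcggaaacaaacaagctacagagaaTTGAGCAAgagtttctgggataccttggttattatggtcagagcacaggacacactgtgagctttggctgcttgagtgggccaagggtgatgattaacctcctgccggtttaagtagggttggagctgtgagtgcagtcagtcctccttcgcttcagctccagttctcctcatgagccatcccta
Fgb: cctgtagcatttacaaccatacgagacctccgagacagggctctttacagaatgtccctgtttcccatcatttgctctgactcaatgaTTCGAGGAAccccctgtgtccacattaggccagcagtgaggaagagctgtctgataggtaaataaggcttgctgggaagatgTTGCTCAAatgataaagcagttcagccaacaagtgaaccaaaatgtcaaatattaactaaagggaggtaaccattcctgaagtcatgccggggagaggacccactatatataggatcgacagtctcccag
Fgg: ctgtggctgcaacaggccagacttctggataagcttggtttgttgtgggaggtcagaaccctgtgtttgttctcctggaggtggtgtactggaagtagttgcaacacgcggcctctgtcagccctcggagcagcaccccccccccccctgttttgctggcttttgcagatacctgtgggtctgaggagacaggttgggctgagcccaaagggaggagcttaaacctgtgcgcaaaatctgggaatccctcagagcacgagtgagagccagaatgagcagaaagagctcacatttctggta
C8a: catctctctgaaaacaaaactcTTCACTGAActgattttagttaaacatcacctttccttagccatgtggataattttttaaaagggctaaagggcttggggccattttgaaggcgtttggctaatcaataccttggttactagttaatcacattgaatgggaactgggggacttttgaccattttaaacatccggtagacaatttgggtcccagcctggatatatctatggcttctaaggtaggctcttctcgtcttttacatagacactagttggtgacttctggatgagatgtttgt
F11: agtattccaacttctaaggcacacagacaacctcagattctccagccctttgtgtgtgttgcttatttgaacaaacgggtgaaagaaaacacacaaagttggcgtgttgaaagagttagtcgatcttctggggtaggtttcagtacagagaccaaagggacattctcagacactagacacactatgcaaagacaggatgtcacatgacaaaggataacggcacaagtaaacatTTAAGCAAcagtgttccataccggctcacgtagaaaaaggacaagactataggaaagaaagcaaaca
Cfd: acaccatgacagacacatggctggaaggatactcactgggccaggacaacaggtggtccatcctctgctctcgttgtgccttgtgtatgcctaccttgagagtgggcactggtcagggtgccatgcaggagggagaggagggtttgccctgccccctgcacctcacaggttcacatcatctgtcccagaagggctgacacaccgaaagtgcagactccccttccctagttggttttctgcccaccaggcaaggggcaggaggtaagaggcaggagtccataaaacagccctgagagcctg

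Terminal complement had the median log2 fold change farthest from 0 of the 8 roles in each of the 4 main comparisons, at -0.813, 0.478, -0.596 and -1.015 in the order of the dot plot. Of its 5 members, 4 fell in HFD versus LFD, 1 rose with the siRNA, 2 fell with the inhibitor, and all 5 were lower with the inhibitor than with the siRNA, although for C6 that call was lost in 5 of the 8 fits with a library left out. Over all tested genes 8.80% fell in HFD versus LFD, 5.20% rose with the siRNA, 8.42% fell with the inhibitor and 16.6% were lower between the treatments, and the 1 rise among so few genes cannot be told from that share. C8a encodes the alpha chain of C8, the protein that starts to insert the pore into the membrane. C8a was measured at 757, 691, 594 and 593 CPM in LFD, 390.1, 454, 325 and 331 in HFD, 554, 595, 496 and 518 in the siRNA group and 280.1, 266, 239.9 and 182 in the inhibitor group. The 4 HFD libraries lay between those of the 2 treatments, with no overlap on either side. C8a fell by 0.81 ± 0.14 (adjusted p = 0.00136) in HFD versus LFD, rose by 0.53 ± 0.14 (adjusted p = 0.0223) in HFD + siRNA versus HFD and fell by 0.63 ± 0.14 (adjusted p = 0.00458) in HFD + Inhib versus HFD. The call with the siRNA was lost without HFD replicates 3 or 4 or without HFD + siRNA replicates 1, 2 or 4 (adjusted p 0.0533 to 0.0824). Between the treatments C8a was 2.24-fold lower with the inhibitor (log2 fold change -1.16 ± 0.14, adjusted p = 1.64e-05).

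C8b, the neighbour of C8a on chromosome 4, encodes the beta chain of the same protein. Its levels were 295, 255, 269 and 232 CPM in LFD, 128, 115, 106 and 103 in HFD, 130.2, 195, 112 and 127 in the siRNA group and 113, 77.4, 94.1 and 54.0 in the inhibitor group. Every LFD library exceeded every library of the other groups, and the 3 HFD-fed groups overlapped. C8b was 2.32-fold lower in HFD than in LFD (log2 fold change -1.22 ± 0.19, adjusted p = 0.00083), the largest decrease of a member in that comparison. With the siRNA the log2 fold change was 0.32 (95% interval -0.06 to 0.69) and with the inhibitor -0.42 (-0.79 to -0.04), and neither passed the threshold. C8g, which encodes the gamma chain, had a log2 fold change of -0.08 ± 0.18 in HFD versus LFD (adjusted p = 0.801) and fell by 0.74 ± 0.18 with the inhibitor (adjusted p = 0.00784).

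C9 supplies the subunits that line the pore. C9 stood at 402, 333, 284 and 296 CPM in LFD, 208, 255, 206 and 177 in HFD, 343, 312, 247 and 274 in the siRNA group and 222, 124, 116 and 97.1 in the inhibitor group. HFD lay below LFD without overlap, while inhibitor replicate 1 lay among the HFD libraries and the other 3 lay below them all. C9 fell by 0.64 ± 0.21 (adjusted p = 0.0421) in HFD versus LFD, a call that was lost without LFD replicates 1, 2 or 3 or without HFD replicates 1, 3 or 4 (adjusted p 0.0584 to 0.136). With the inhibitor the log2 fold change was -0.60 ± 0.21 against HFD (adjusted p = 0.0563). This value ran from -0.91 to -0.46 with single libraries left out. Against the siRNA, C9 was 2.10-fold lower with the inhibitor (adjusted p = 0.00101). C6, which joins the complex after C5, was measured at 270.3, 249, 216 and 184 CPM in LFD, 95.1, 178, 64.3 and 69.4 in HFD, 139, 253, 129 and 189.7 in the siRNA group and 113, 125, 93.8 and 45.4 in the inhibitor group. HFD replicate 2 stood well above the other 3 HFD libraries but below LFD. C6 fell by 1.17 ± 0.33 (adjusted p = 0.0217) in HFD versus LFD, and this was lost without LFD replicate 1 or without HFD replicates 1, 3 or 4 (adjusted p 0.0502 to 0.0733). Its log2 fold change with the inhibitor was -0.11 (95% interval -0.75 to 0.53).

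**Figure D3:**
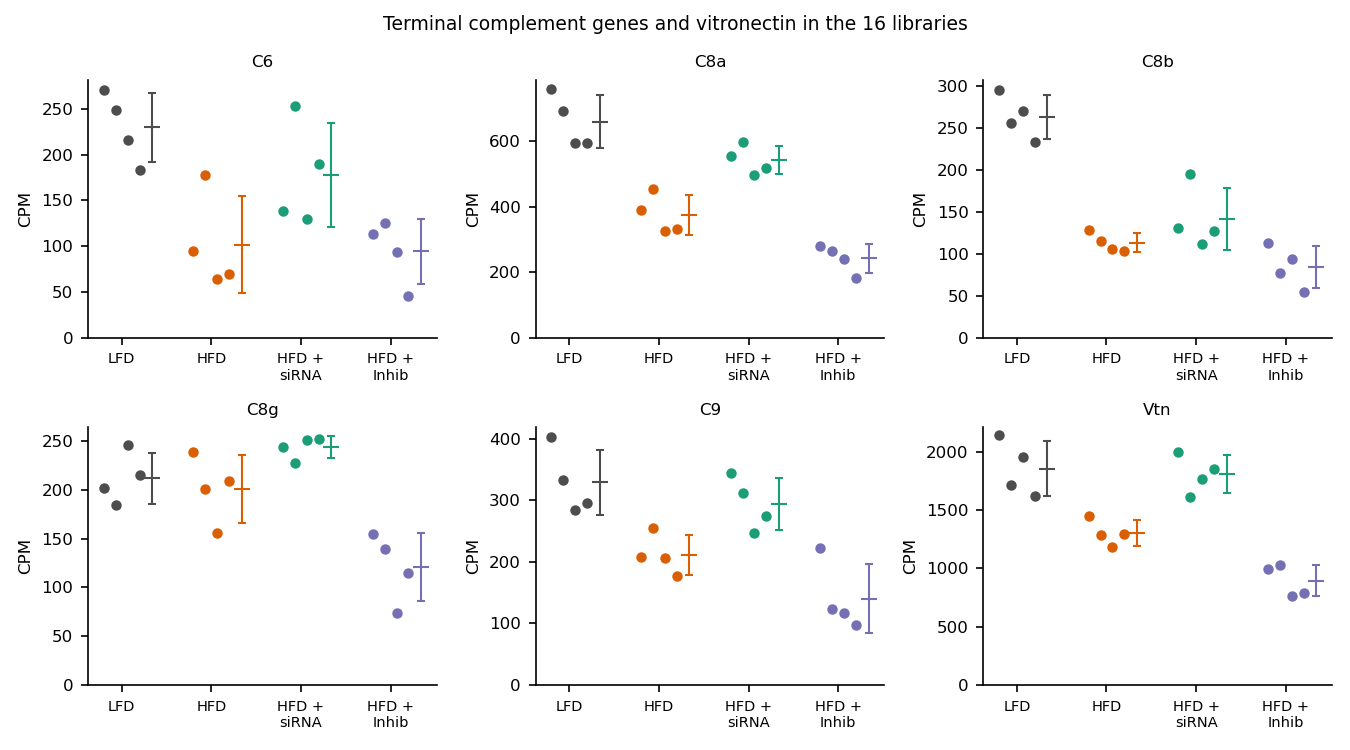
CPM (y axis, starting at 0) of the 5 terminal complement genes and Vtn in the 16 libraries by group (x axis), with points for libraries and a bar for mean ± SD of 4. For C8a and Vtn the HFD libraries lie between those of the siRNA and the inhibitor without overlap, and for C8b the 4 LFD libraries lie above all 12 others.

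Vitronectin (Vtn) keeps the terminal complex from inserting into membranes. Vtn stood at 2142, 1712, 1955 and 1620.0 CPM in LFD, 1451, 1287, 1185 and 1292 in HFD, 2002, 1609, 1767 and 1849 in the siRNA group and 994, 1029, 766 and 792 in the inhibitor group. As for C8a, the HFD libraries lay between the 2 treatments with no overlap. Vtn fell by 0.51 ± 0.12 (adjusted p = 0.0106) in HFD versus LFD, rose by 0.47 ± 0.12 (adjusted p = 0.0225) with the siRNA and fell by 0.54 ± 0.12 (adjusted p = 0.00587) with the inhibitor. The siRNA call was lost without HFD replicates 3 or 4 or without HFD + siRNA replicates 1, 3 or 4 (adjusted p 0.0518 to 0.0766). Vtn was 2.02-fold lower with the inhibitor than with the siRNA (adjusted p = 2.00e-05). Of the other regulators, Cfi, the protease that degrades C3b and C4b, fell by 0.59 ± 0.09 with the inhibitor (adjusted p = 0.000297). Serping1, the C1 inhibitor, fell by 0.29 in HFD versus LFD (adjusted p = 0.0495, and 0.177 without LFD replicate 1), rose by 0.32 with the siRNA (adjusted p = 0.0406, and 0.125 without HFD + siRNA replicate 1) and had a log2 fold change of -0.10 with the inhibitor (adjusted p = 0.544).

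C3 is the protein on which all 3 activation pathways meet. C3 stood at 8605, 7798, 8553 and 6957 CPM in LFD, 6080.4, 4681, 5315 and 5284 in HFD, 7609, 6423, 6688 and 7377 in the siRNA group and 5719, 6086, 5106 and 5196 in the inhibitor group. All HFD libraries lay below all LFD and all siRNA libraries, and the inhibitor libraries overlapped those of HFD. C3 fell by 0.58 ± 0.12 (adjusted p = 0.00351) in HFD versus LFD and rose by 0.40 ± 0.12 (adjusted p = 0.0358) with the siRNA, and the latter was lost without HFD replicates 2, 3 or 4 or without HFD + siRNA replicates 1, 3 or 4 (adjusted p 0.066 to 0.113). With the inhibitor its log2 fold change was 0.05 (95% interval -0.18 to 0.28), so C3 was not among the genes that fell with the inhibitor. Cfb, factor B of the alternative pathway, fell by 0.33 ± 0.09 in HFD versus LFD (adjusted p = 0.0134) and by 0.42 ± 0.09 with the inhibitor (adjusted p = 0.00271). In the annotation, 73.0% of the 50-base words of Cfb and 38.7% of those of C2 are shared with a read-through gene model, Gm20547, that is not a symbol in the table. Properdin (Cfp), which stabilises the alternative C3 convertase, was not called in any of the 4 main comparisons.

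Cfd, factor D or adipsin, cleaves factor B and was the only member to rise in HFD + Inhib versus HFD. It was counted 7, 1, 37 and 20 times in LFD, 54, 261, 21 and 27 in HFD, 152, 220, 256 and 265 in the siRNA group and 1481, 435, 1341 and 846 in the inhibitor group, or 0.293, 0.0358, 1.11 and 0.659, 1.79, 6.70, 0.797 and 1.06, 4.81, 8.01, 8.93 and 7.76 and 52.3, 16.9, 43.4 and 25.4 CPM. All 4 inhibitor libraries lay above every other library, and HFD replicate 2 stood far above the other HFD libraries and within the siRNA range. Cfd rose by 3.67 ± 0.58 (adjusted p = 0.000315) with the inhibitor versus HFD, which is 12.8-fold (28.0-fold without HFD replicate 2), and rose by 2.23 ± 0.53 (adjusted p = 0.00441) versus the siRNA. In HFD versus LFD, where the groups overlapped, Cfd rose by 2.29 ± 0.71 (adjusted p = 0.0339), but the call was lost without LFD replicates 1, 2 or 4 or without HFD replicate 2 (adjusted p 0.0519 to 0.22). Without HFD replicate 2 the log2 fold change was 1.15 (adjusted p = 0.22). With the siRNA versus HFD the log2 fold change was 1.45 ± 0.56 (adjusted p = 0.103), and without HFD replicate 2 it was 2.58 (adjusted p = 0.00741). Versus LFD Cfd rose by 3.73 ± 0.68 (adjusted p = 0.00288).

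Markers of adipocytes were read beside Cfd. The summed count of Adipoq, Retn, Lep, Plin1 and Slc7a10 was 1, 3, 44 and 15 in LFD, 0, 44, 1 and 1 in HFD, 1, 2, 4 and 5 in the siRNA group and 2, 2, 5 and 4 in the inhibitor group. The libraries with the most adipocyte counts, LFD replicate 3 and HFD replicate 2, also had the highest Cfd of their groups. HFD replicate 2 had 10 Adipoq, 21 Lep and 9 Plin1 counts, and the part of these in the HFD level of Cfd was not tested. In the inhibitor libraries these 5 markers summed to at most 5 counts, beside 435 to 1481 counts of Cfd. Nrg4, the sixth and most abundant marker of the list, is also expressed in other tissues and was measured at 3.94, 3.96, 5.50 and 6.37 CPM in HFD and 13.3, 4.16, 4.24 and 8.75 in HFD + Inhib.

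**Figure D4:**
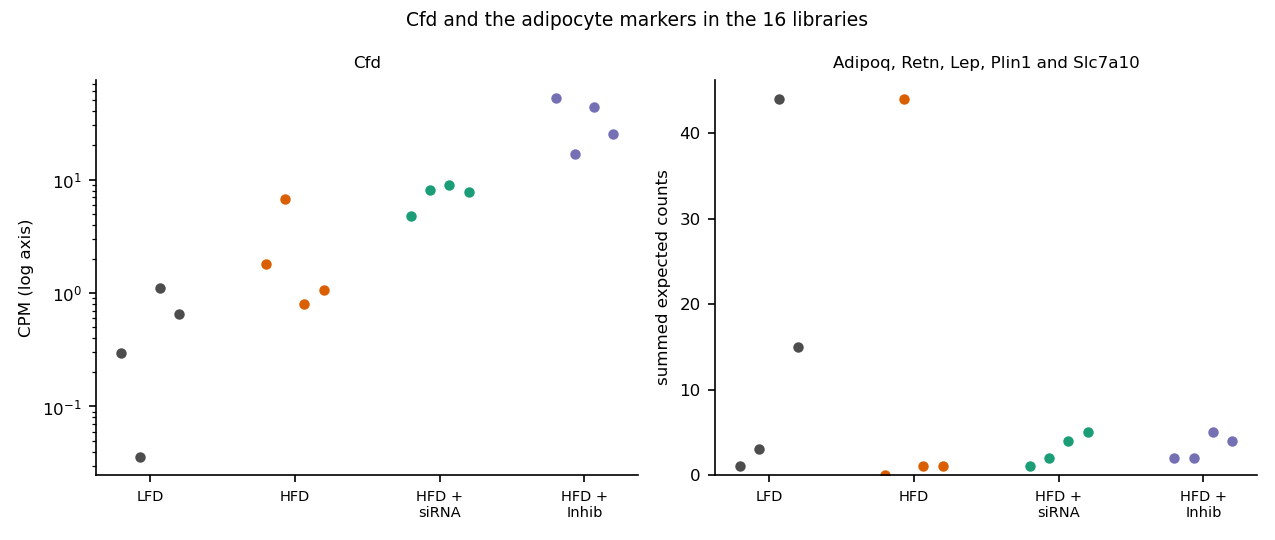
Left, Cfd in CPM (log y axis); right, summed expected counts of 5 adipocyte markers (y axis, starting at 0), each in the 16 libraries by group (x axis), with a point per library. The inhibitor libraries have the highest Cfd and at most 5 adipocyte counts, while LFD replicate 3 and HFD replicate 2 have 44 adipocyte counts each.

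Among the 11 genes of the starting steps, 3 fell in HFD versus LFD, 1 rose with the siRNA and 4 fell with the inhibitor, beside 8.80%, 5.20% and 8.42% of all tested genes. The 1 that rose stands beside 9.34% of the abundant genes, so this count is no more than the background. C2, which pairs with C4 to cleave C3, stood at 101, 98.4, 99.2 and 84.1 CPM in LFD, 58.2, 52.1, 38.2 and 53.9 in HFD, 77.9, 58.2, 61.8 and 57.2 in the siRNA group and 54.3, 37.5, 27.3 and 40.7 in the inhibitor group. LFD lay above all other libraries, with LFD replicate 4 the lowest of its group. C2 fell by 0.92 ± 0.17 (adjusted p = 0.00232) in HFD versus LFD, and its log2 fold change was 0.33 (95% interval -0.00 to 0.67) with the siRNA. C1s1, a protease of the C1 complex, showed another order, with 349, 442, 423 and 418 CPM in LFD, 430.4, 438, 435 and 440.1 in HFD, 368, 511, 450.3 and 437 in the siRNA group and 192, 290.1, 257 and 244 in the inhibitor group. The 4 inhibitor libraries lay below all 12 others, which overlapped. C1s1 fell by 0.83 ± 0.12 (adjusted p = 0.000187) with the inhibitor, and its log2 fold change was 0.10 (95% interval -0.14 to 0.33) in HFD versus LFD and 0.02 (-0.22 to 0.26) with the siRNA.

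C1ra, the partner protease and neighbour of C1s1 on chromosome 6, fell by 0.37 ± 0.10 in HFD versus LFD (adjusted p = 0.0167, and 0.0644 without LFD replicate 3) and by 0.49 ± 0.10 with the inhibitor (adjusted p = 0.00238). C1ra shares 48.0% of its 50-base words with C1rb and C1s1 21.8% with C1s2, and C1rb had at most 13 counts in a library. C4b, which shares 34.6% with C4a, fell by 0.63 ± 0.12 with the inhibitor (adjusted p = 0.00114). Masp1, a protease of the lectin pathway, fell by 0.46 ± 0.07 with the inhibitor (adjusted p = 0.00019), whereas Masp2 was not called in any of the 4 main comparisons. The lectin Mbl1 was measured at 213, 258, 262 and 237 CPM in LFD, 188, 202, 157 and 147 in HFD, 186, 323, 207 and 262 in the siRNA group and 194, 218, 189 and 169 in the inhibitor group. HFD lay below LFD, and the siRNA libraries overlapped both. Mbl1 fell by 0.48 ± 0.15 (adjusted p = 0.0358) in HFD versus LFD and rose by 0.50 ± 0.15 (adjusted p = 0.0429) with the siRNA. The first call was lost without LFD replicates 2, 3 or 4 or without HFD replicates 3 or 4 (adjusted p 0.053 to 0.122), and the second without HFD replicates 1, 3 or 4 or without HFD + siRNA replicates 2 or 4 (adjusted p 0.0623 to 0.156). Mbl2, the second lectin, was not called.

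The C1q chains are members that liver macrophages make. C1qa stood at 25.7, 30.1, 30.8 and 25.0 CPM in LFD, 26.0, 26.6, 23.8 and 28.9 in HFD, 30.8, 23.3, 37.0 and 38.9 in the siRNA group and 24.6, 21.1, 20.04 and 22.2 in the inhibitor group. All 4 groups overlapped apart from inhibitor against LFD. The log2 fold change of C1qa was -0.08 (95% interval -0.35 to 0.18) in HFD versus LFD, and it was 1.48-fold lower with the inhibitor than with the siRNA (adjusted p = 0.00401, but 0.194 after the GC and length correction). C1qb and C1qc were likewise lower, by 0.73 ± 0.15 and 0.73 ± 0.16 on the log2 scale (adjusted p = 0.00128 and 0.00195). Of 12 macrophage markers, 5 were lower and 0 higher in that comparison, and 2 (Clec4f and Cd5l) were lower in HFD + Inhib versus HFD. The shares of all tested genes were 16.6% and 8.42% lower, and 2 among so few genes cannot be told from the latter. Clec4f, a Kupffer cell lectin and the most abundant of the list, stood at 76.5, 77.9, 66.3 and 83.9 CPM in HFD, 89.4, 84.1, 91.5 and 107 in the siRNA group and 64.3, 45.5, 50.9 and 52.8 in the inhibitor group. Not every marker of the list went this way. Marco was counted 81, 150, 116 and 98 times in HFD and 225, 55, 222 and 304 in the inhibitor group. Timd4 was counted 132, 138, 119 and 158 times in HFD and 186, 106, 155 and 195 in the inhibitor group. The summed level of the 12 markers was 349 ± 71.2 CPM in LFD, 340 ± 37.1 in HFD, 403 ± 49.2 in the siRNA group and 275 ± 53.3 in the inhibitor group, and its part in the C1q levels was not tested.

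Of the 10 clotting factors, 4 fell and 1 rose in HFD versus LFD, 0 were called for the siRNA versus HFD, and 5 fell for the inhibitor versus HFD. The shares of all tested genes were 8.80% fallen and 9.58% risen in HFD versus LFD and 8.42% fallen with the inhibitor. With the siRNA 5.20% of all tested genes rose and 6.55% fell. The 1 rise in HFD versus LFD and the absence of calls with the siRNA are therefore near the background. Factor XI (F11), a protease of the intrinsic pathway, had the largest decrease of any member with the inhibitor. F11 stood at 60.0, 61.6, 54.8 and 65.5 CPM in LFD, 59.9, 63.5, 53.3 and 62.7 in HFD, 78.6, 69.5, 59.7 and 44.7 in the siRNA group and 30.0, 21.3, 34.9 and 28.8 in the inhibitor group. The inhibitor libraries lay below all 12 others, and the other groups overlapped. F11 was 2.08-fold lower with the inhibitor than in HFD (log2 fold change -1.06 ± 0.16, adjusted p = 0.000179). This value was -0.01 (95% interval -0.32 to 0.29) in HFD versus LFD and 0.08 (-0.22 to 0.38) with the siRNA. Klkb1, prekallikrein and the neighbour of F11 on chromosome 8, had a log2 fold change of -0.18 ± 0.09 with the inhibitor (adjusted p = 0.216), and 42.7% of its 50-base words are shared with another gene model.

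Factor VII (F7), which starts clotting with tissue factor, stood at 69.1, 71.2, 73.6 and 75.1 CPM in LFD, 53.0, 43.3, 45.3 and 57.0 in HFD, 63.4, 50.6, 62.4 and 52.3 in the siRNA group and 33.0, 33.4, 20.4 and 29.4 in the inhibitor group. LFD lay above and the inhibitor below all other libraries. F7 fell by 0.54 ± 0.14 (adjusted p = 0.0123) in HFD versus LFD and fell by 0.77 ± 0.14 (adjusted p = 0.000869) with the inhibitor. F10, its neighbour and substrate, fell by 0.37 ± 0.07 in HFD versus LFD (adjusted p = 0.0025). Prothrombin (F2) was measured at 1552, 1287, 1516 and 1214 CPM in LFD, 1158, 1081, 1015 and 1124 in HFD, 1391, 1219, 1263 and 1233 in the siRNA group and 891, 889.8, 737 and 802 in the inhibitor group. The inhibitor libraries lay below all others. F2 fell by 0.40 ± 0.10 (adjusted p = 0.0115) with the inhibitor and fell by 0.35 ± 0.10 (adjusted p = 0.0261) in HFD versus LFD, the latter lost without LFD replicates 1 or 3 or without HFD replicates 2, 3 or 4 (adjusted p 0.0508 to 0.0932).

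F5 and F12 fell with the inhibitor as well, by 0.43 ± 0.09 and 0.47 ± 0.12 on the log2 scale (adjusted p = 0.00216 and 0.00937). F5 is the cofactor of F10, and F12 starts the contact pathway. Kng1, the kininogen that carries prekallikrein, fell in HFD versus LFD by 0.47 ± 0.11 (adjusted p = 0.0069) and had a log2 fold change of -0.04 with the inhibitor (adjusted p = 0.845). F9, the other protease that activates F10, went the other way and rose by 0.48 ± 0.13 in HFD versus LFD (adjusted p = 0.0189, and 0.0626 without LFD replicate 3). After the GC and length correction the log2 fold change of F9 was 0.09 (adjusted p = 0.45).

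Fibrinogen is built of 3 chains whose genes lie side by side on chromosome 3, and their log2 fold changes lay close together. Fga stood at 4486, 4296, 4050.4 and 3590.2 CPM in LFD, 3256, 2639.8, 3049 and 2744 in HFD, 2989, 3686, 2973 and 3307 in the siRNA group and 2007, 2200.5, 2949 and 2187 in the inhibitor group. Fgb stood at 3375, 3256, 3067 and 2769, 2624, 2143, 2657 and 2368, 2346, 3117, 2313 and 2554 and 1770.0, 1996, 2605 and 1932 CPM in the same order. Fgg stood at 3011, 2811, 2873 and 2352, 2249.7, 1624, 2028 and 1866, 2078, 2548, 2003 and 2098 and 1331, 1577, 1958 and 1381 CPM. For each chain every HFD library lay below every LFD library, and inhibitor replicate 3 and siRNA replicate 2 were the highest of their groups. In HFD versus LFD Fga fell by 0.49 ± 0.13 (adjusted p = 0.0167), Fgg fell by 0.51 ± 0.14 (adjusted p = 0.0197), and Fgb had a log2 fold change of -0.35 (95% interval -0.61 to -0.09, adjusted p = 0.0829). The Fga call was lost without LFD replicate 1 or without HFD replicate 4 (adjusted p 0.0524 to 0.0551), and the Fgg call without LFD replicates 1 or 3 or without HFD replicates 2 or 4 (adjusted p 0.0551 to 0.0592). With the inhibitor versus HFD the log2 fold changes were -0.32, -0.24 and -0.31, with adjusted p of 0.0988, 0.246 and 0.134, and with the siRNA they were 0.15, 0.08 and 0.17. In HFD + Inhib versus LFD all 3 chains were lower, by 1.76-, 1.5- and 1.77-fold. F13b, the carrier subunit of the fibrin-linking factor XIII, was not called in any of the 4 main comparisons.

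**Figure D5:**
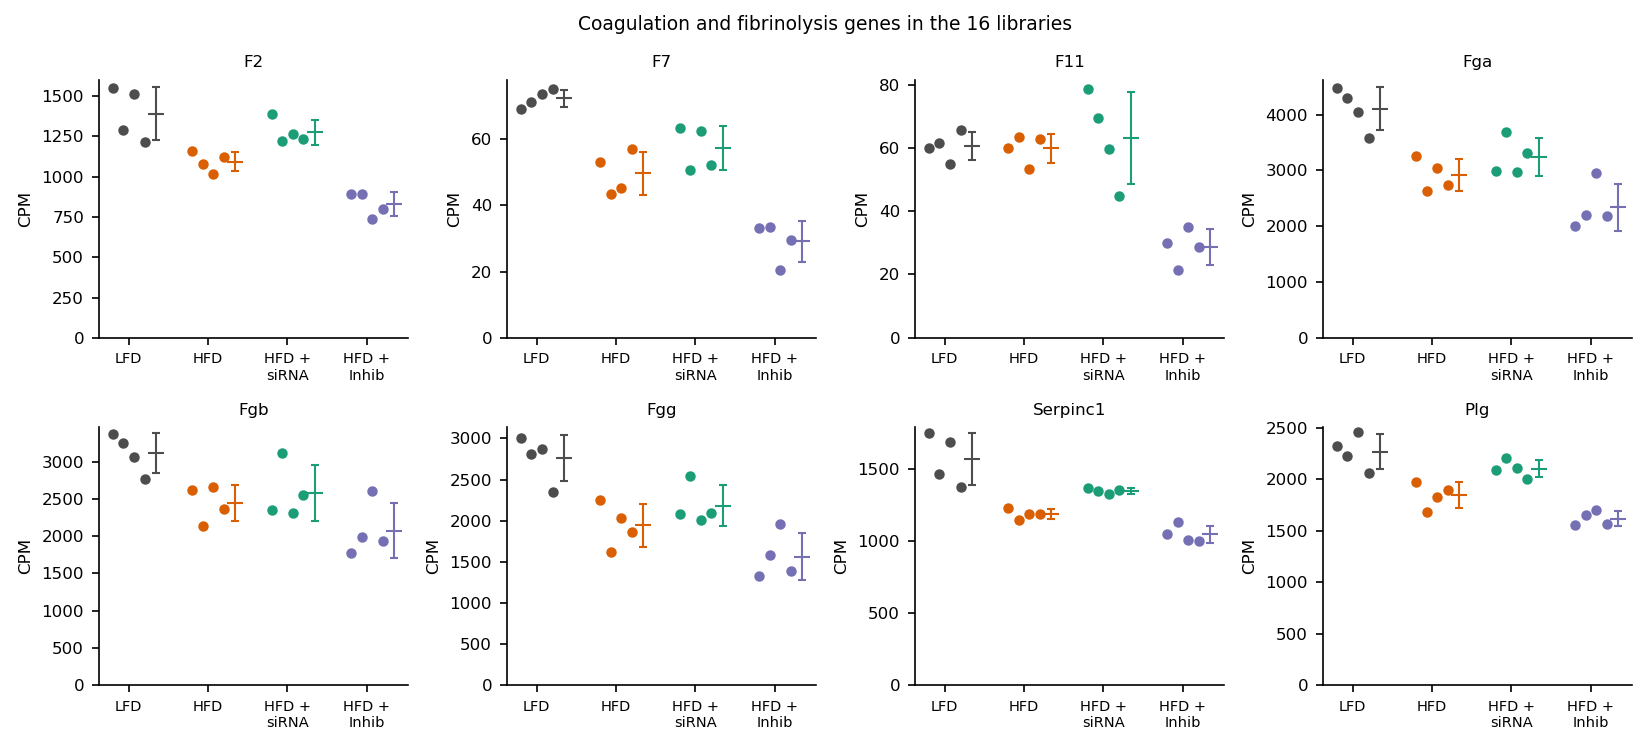
CPM (y axis, starting at 0) of 8 clotting and fibrinolysis genes in the 16 libraries by group (x axis), with points for libraries and a bar for mean ± SD of 4. F11 is lower in the 4 inhibitor libraries than in all others, while the 3 fibrinogen chains are lower in HFD than in LFD and overlap between HFD and HFD + Inhib.

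Of the 4 inhibitors of clotting, 1 fell in HFD versus LFD (all tested genes, 8.80%) and 2 fell with the inhibitor versus HFD (8.42%), numbers too small to set against those shares. Antithrombin (Serpinc1) stood at 1749.6, 1467, 1684 and 1372 CPM in LFD, 1225, 1142, 1187 and 1185 in HFD, 1365, 1344, 1322 and 1351 in the siRNA group and 1049, 1130.2, 1007 and 999 in the inhibitor group. The 4 groups did not overlap, in the order LFD, HFD + siRNA, HFD and HFD + Inhib. Serpinc1 fell by 0.40 ± 0.09 (adjusted p = 0.00666) in HFD versus LFD, while with the siRNA and the inhibitor its log2 fold changes of 0.18 and -0.18 did not pass (adjusted p = 0.202 and 0.186). Protein C (Proc) and heparin cofactor II (Serpind1) had log2 fold changes of -0.16 and -0.05 in HFD versus LFD (adjusted p = 0.26 and 0.652) and falls of 0.40 ± 0.10 and 0.45 ± 0.07 with the inhibitor (adjusted p = 0.00839 and 0.00054). Whether these genes differ from Serpinc1 in their response was not tested. Pros1, the cofactor of protein C, had a log2 fold change of 0.20 ± 0.09 with the inhibitor (adjusted p = 0.121).

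Plasminogen (Plg) is the precursor of plasmin, which dissolves fibrin. Plg was measured at 2322, 2224, 2459 and 2056 CPM in LFD, 1977, 1683, 1831 and 1899 in HFD, 2088, 2202, 2107 and 2005 in the siRNA group and 1553, 1649, 1702 and 1565 in the inhibitor group. HFD lay below LFD and below the siRNA libraries, and inhibitor replicate 3 reached into the HFD range. Plg fell by 0.29 ± 0.09 (adjusted p = 0.0301) in HFD versus LFD, lost without LFD replicates 1 or 3 or without HFD replicates 2, 3 or 4 (adjusted p 0.0628 to 0.114). Serpinf2, the plasmin inhibitor, fell by 0.37 ± 0.12 in HFD versus LFD (adjusted p = 0.0357, and 0.133 without LFD replicate 1) and by 0.47 ± 0.12 with the inhibitor (adjusted p = 0.0104).

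Other genes of the same pathways were read from 2 further lists. Of 27 other complement genes tested, 3 fell in HFD versus LFD, 1 rose with the siRNA, and 8 fell and 1 rose with the inhibitor versus HFD. Over all tested genes 8.80% fell in HFD versus LFD, 5.20% rose with the siRNA and 8.42% fell with the inhibitor, so the first 2 counts lie near the background. Hc, which encodes C5, fell by 0.46 ± 0.12 in HFD versus LFD (adjusted p = 0.0141, and 0.056 without LFD replicate 1) and by 0.42 ± 0.12 with the inhibitor (adjusted p = 0.0201, and 0.0733 without HFD + Inhib replicate 4). C4bp, an inhibitor of the classical C3 convertase, fell by 0.81 ± 0.11 with the inhibitor (adjusted p = 9.84e-05). Clusterin (Clu), which binds the terminal complex, stood at 1064, 902, 1166 and 861 CPM in LFD, 881, 789, 779.7 and 751 in HFD, 1158, 1024, 1144 and 1153 in the siRNA group and 715, 823, 689.7 and 701 in the inhibitor group. Every siRNA library exceeded every HFD and inhibitor library. Clu rose by 0.48 ± 0.11 (adjusted p = 0.00858) with the siRNA, and its log2 fold change was -0.13 with the inhibitor (adjusted p = 0.447). C5ar1, the receptor of the fragment C5a, fell by 1.34 ± 0.23 with the inhibitor (adjusted p = 0.000747), from 29 to 64 counts in the HFD libraries to 11 to 24.

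Of 32 other coagulation and fibrinolysis genes tested, 3 rose and 3 fell in HFD versus LFD, 2 rose and 2 fell with the siRNA, and 2 rose and 7 fell with the inhibitor versus HFD. The counts for HFD versus LFD and for the siRNA lie near the shares of all tested genes (9.58% rose and 8.80% fell, and 5.20% rose and 6.55% fell). With the inhibitor 9.80% of all tested genes rose and 8.42% fell, so the 2 rises are no more than the background. Tfpi2, an inhibitor of plasmin and other proteases, stood at 36.2, 40.8, 39.6 and 38.5 CPM in HFD, 30.9, 39.7, 26.1 and 29.2 in the siRNA group and 94.2, 74.0, 91.5 and 91.8 in the inhibitor group, and it rose by 1.18 ± 0.13 (adjusted p = 1.5e-05) with the inhibitor.

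Protein Z (Proz), the cofactor of an inhibitor of F10, is a neighbour of F10 on chromosome 8 and was measured at 314, 326, 333 and 314 CPM in LFD, 302, 292, 334 and 305 in HFD, 263, 264, 262 and 252 in the siRNA group and 217, 222, 279.5 and 226 in the inhibitor group. The LFD and HFD libraries overlapped, and those of both treatments lay below them. Proz fell by 0.38 ± 0.08 (adjusted p = 0.00433) with the inhibitor, and its log2 fold change was -0.24 ± 0.08 with the siRNA (adjusted p = 0.0692). Serpine2, another inhibitor of thrombin, rose by 1.16 ± 0.27 (adjusted p = 0.0109) with the siRNA although the groups overlapped. Tissue factor (F3) fell by 0.84 ± 0.24 (adjusted p = 0.0322) with the siRNA, lost without HFD replicates 1, 3 or 4 or without HFD + siRNA replicates 1 or 4 (adjusted p 0.0597 to 0.123). F8, the cofactor of F9, rose by 0.63 ± 0.15 (adjusted p = 0.00868) in HFD versus LFD. In the same comparison Fgl1, a fibrinogen-like protein of hepatocytes, fell by 0.68 ± 0.18 (adjusted p = 0.0182). Fgl1 was not called without LFD replicate 1 or without HFD replicate 3 (adjusted p 0.0552 to 0.0645), and its log2 fold change was -0.40 without LFD replicate 1. F13a1, the enzyme subunit of factor XIII, was at 8 to 29 counts in HFD and 0 to 8 in HFD + Inhib, and it fell by 1.71 ± 0.50 (adjusted p = 0.025), a call lost without HFD replicates 1 or 2 or without HFD + Inhib replicate 3 (adjusted p 0.0519 to 0.0871).

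Other lists of liver genes give the setting. Over all tested genes, 9.58% rose and 8.80% fell in HFD versus LFD, 5.20% rose and 6.55% fell with the siRNA, and 9.80% rose and 8.42% fell with the inhibitor, so counts of 1 or 2 in these lists cannot be told from the background. A list of 17 acute phase genes holds proteins that the liver raises in inflammation, together with the signalling genes Il6ra, Il6st and Socs3. Of these 17, 2 rose and 1 fell in HFD versus LFD, 1 rose with the siRNA, and 10 fell and 0 rose with the inhibitor versus HFD. Itih4, an inter-alpha-trypsin inhibitor chain, fell by 1.44 ± 0.13 with the inhibitor (adjusted p = 1.54e-06), and Il6ra, the receptor for interleukin 6, by 1.27 ± 0.18 (adjusted p = 0.000142). Il6st, also on this list, overlapped between these groups, with 6797, 8816, 5526 and 5702 counts in HFD and 5948, 6026, 6687 and 7095 in HFD + Inhib. The 10 hepatocyte markers fell in 2 cases in HFD versus LFD and in 5 with the inhibitor versus HFD, among them Alb by 0.77 ± 0.13 (adjusted p = 0.000761) and Ttr by 0.93 ± 0.12 (adjusted p = 5.55e-05). Other markers of the list overlapped between these groups. On unscaled totals Apob stood at 13398, 13251, 14100 and 13051 CPM in HFD and 11626, 11487, 13519 and 12401 in HFD + Inhib. Hpd stood at 1321, 889, 1390 and 1415 CPM in HFD and 1326, 1371, 1115 and 1291 in HFD + Inhib. Of 17 hepatocyte transcription factors, 1 rose and 1 fell in HFD versus LFD, 0 were called with the siRNA, and 1 rose and 3 fell with the inhibitor versus HFD. Stat3 fell by 0.46 ± 0.09 with the inhibitor (adjusted p = 0.0027). On unscaled totals Creb3l3 of the same list stood at 217, 210, 181 and 211 CPM in HFD and 274, 251, 189 and 247 in HFD + Inhib. Any part of Il6ra or Stat3 in the levels of the 42 members was not tested. The part of the hepatocyte marker levels in those of the 42 members was not tested. Of 8 endothelial markers 1 (Lyve1) rose with the inhibitor and 0 fell, and of 5 neutrophil and lymphocyte markers tested 1 fell and 0 rose.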

How the data were processed

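The authors deposited the 16 libraries as unscaled expected counts in a single table with a row per symbol. Per the labels, the submitters' processing notes name STAR, RSEM and the genome build mm39, while the study's methods name HTG EdgeSeq, a probe assay, so which assay made the table is not settled. RSEM divides reads that match several genes, and 15.1% of the deposited values are not whole. They were rounded, filtered with filterByExpr (minimum count 10, minimum total 15), scaled by TMM and tested with edgeR 4.0.16 (R 4.3.3) in 1 quasi-likelihood fit of all 16 libraries, with Benjamini-Hochberg adjustment over 18335 genes and a threshold of 0.05. The fit was tested on simulated data. Median chi-square per gene between libraries of a group was 1.43 to 5.27 over 24 pairs, so no pair was treated as 1 repeated library. Named genes were C1qa, C3, C9, Cfd, F2, the fibrinogen chains, Plg and Serpinc1, the 4 called members with the largest absolute log2 fold change in each of the 4 main comparisons, Proz, and the 3 such genes of the other pathway lists; other called genes were named as examples, and some results that this rule or the planned motif search would give are not reported here. The members and lists were chosen with earlier results of these data known. Alternatives were DESeq2 1.42.0, its size factors, other filters, a fit of the 2 compared groups, a replicate block, each library left out, an adjusted p under 0.01, and removal of the trend on GC content and length. For that trend each gene was represented by its longest coding transcript in GENCODE M21, in place of the median over its transcripts, a change made after values were seen because C3 has many short annotated fragments. The reference genome at hand is another build than mm39, so coordinates are given only for RefSeq promoters.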

Additional observations from a re-analysis of the deposited data

Results flagged for a closer look

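Cfd in HFD replicate 2 (6.70 CPM) stood apart from the other 3 HFD libraries by Dixon's criterion, and the same library held 44 counts of 5 adipocyte markers. C2 in LFD replicate 4 (84.1 CPM) stood below the other LFD libraries by the same criterion. These were 2 of 76 groups of 4 libraries examined, and chance alone marks about 1 in 20 groups. For C8a and Vtn the effects of the siRNA and of the inhibitor against HFD went in opposite directions, each past the threshold, and the test of the difference itself gave a log2 fold change of -1.16 (adjusted p = 1.64e-05) for C8a and -1.01 (adjusted p = 2.00e-05) for Vtn in HFD + Inhib versus HFD + siRNA. The rise of both genes with the siRNA was lost when some single libraries were left out, while the difference between the treatments was called in all 8 such fits for each gene. No cause was tested for any of these results.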

How the results depend on the processing

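An adjusted p under 0.01 left 7 members in HFD versus LFD, 0 for the siRNA versus HFD and 3 for the siRNA versus LFD. Without a filter on low counts the last 2 comparisons gave 2 and 5, and a fit of the 2 compared groups gave 4 in HFD + siRNA versus LFD. The median member log2 fold change moved to -0.20 with the GC and length correction and -0.19 with the replicate block added in HFD versus LFD, and to 0.0881 and 0.0835 in HFD + siRNA versus HFD. The summed level of the members in HFD was 29761.5 CPM on unscaled totals. With single libraries left out, members called ranged from 12 to 22 in HFD versus LFD, 0 to 7 for the siRNA versus HFD and 4 to 7 for the siRNA versus LFD, and the medians from -0.34 to -0.21, 0.15 to 0.21 and -0.18 to -0.0777; in HFD + Inhib versus HFD the median ranged from -0.42 to -0.29. The other counts of called members stayed within 1.5 times the reported value under every alternative run, and DESeq2 called all members that edgeR called in each comparison.

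Changes of sign were seen only for values not called in the reported fit. With the GC and length correction, without and with the replicate block, the log2 fold change was 0.21 and 0.20 for C1qa, 0.21 and 0.22 for Khk and -0.18 and -0.17 for Tfpi2 in HFD versus LFD, 0.0091 and 0.0059 for Tfpi2 with the siRNA, and -0.0875 and -0.11 for Fgl1 and -0.0079 and -0.0075 for F8 in HFD + Inhib versus HFD. In HFD versus LFD F11 was at 0.0015 and Khk at 0.0053 with at least 10 counts in every library, and Khk at 0.0038 with the block. With single libraries left out, the range crossed 0 in HFD versus LFD for Khk (-0.12 to 0.15), F11 (-0.053 to 0.037) and F13a1 (-0.094 to 0.35), with the siRNA versus HFD for F11 (-0.0615 to 0.19), Fgb (-0.046 to 0.12) and C1s1 (-0.079 to 0.083), and with the inhibitor versus HFD for C3 (-0.009 to 0.12), C6 (-0.28 to 0.31) and Serpine2 (-0.45 to 0.0003). The cause was not tested in any case.

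The labels do not say that a shared replicate number marks a shared litter, batch or day, and not every same-numbered pair correlated above 0.1, so the numbers were not treated as pairing the libraries. Correlations of same-numbered libraries ran from -0.13 to 0.34 over 24 pairs (median 0.068, against -0.017 for other numbers), and 9 of 16 libraries correlated best with their own number, which is a hint of pairing from the data and not from the design. With the replicate block 22, 6, 19 and 33 members were called in the 4 main comparisons.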
